A study of Mus musculus with 6 samples.

Results

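The immediate-early AP-1 and Egr transcription factor genes form a set of 10 genes, taken here from arrays of C2C12 cells, a mouse myoblast line. The set holds the Fos family (Fos, Fosb, Fosl1 and Fosl2), the Jun family (Jun, Junb and Jund) and Egr1, Egr2 and Egr3, out of 19938 genes that have a probe set naming a single gene. Each gene was read from its brightest such probe set, by the mean of the 6 arrays, and each of the 10 genes has only 1. The shPARP2 cells carry a PARP2-specific shRNA that was delivered by lentivirus at 40 MOI and kept under puromycin selection, and the scPARP2 cells carry a scrambled shRNA delivered in the same way. Both lines were grown in DMEM with high glucose and serum. Total RNA of 3 samples of each line was hybridized, 1 sample to an array, to Affymetrix Mouse Gene 1.0 ST arrays. With 1 line of each kind, silencing of Parp2 cannot be told apart from other ways in which both lines may differ. Neither the labels nor the methods say whether the 3 samples came from separate cultures, so a p-value here reflects only how far these samples scatter, and that scatter may be technical.

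AP-1 is a dimer of basic leucine zipper proteins. Jun proteins pair with each other or with Fos proteins, Fos proteins need a Jun partner to bind DNA, and the dimers bind AP-1 sites and the related cAMP response elements (CRE). The Egr proteins bind GC-rich sites through zinc fingers. Most of these genes belong to the immediate-early genes, which serum, growth factors and stress switch on within minutes, without new protein synthesis, through ERK, JNK and p38 kinases acting on serum response factor (SRF) with its partners, on CREB and on Jun itself. Jund and Fosl2 are less tightly tied to stimulation, and Fosl1 is itself a target of AP-1. In myoblasts, c-Jun and c-Fos are known to oppose MyoD, and their activity is tied to proliferation and growth factor signalling.

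The DNA just upstream of 5 of these genes is shown because it holds CRE or CArG matches, kinds of element through which such signals act. The search covered 7 of the 10 genes, matched by symbol in the RefSeq promoter table (GRCm38.p6). Fosl1 and Egr3 had no entry there and Egr1 was left out of the search, so the motif counts say nothing of them. The 250 bases before the annotated start were searched on both strands for the AP-1 site TGANTCA, the CRE-like site TGACNTCA, the CRE half-site TGACG, the Egr site GCGNGGGCG and the CArG box that SRF binds. A full CRE would count under both the CRE-like site and the half-site. The windows of Jund, which held no match, and Fosl2, which held only an Egr site, were searched but are not shown. Capitals mark the matches, each run is written 5′ to 3′ on the strand of its gene, and a match is a description of letters only.
Fos, chr12:85473640-85473889, plus strand: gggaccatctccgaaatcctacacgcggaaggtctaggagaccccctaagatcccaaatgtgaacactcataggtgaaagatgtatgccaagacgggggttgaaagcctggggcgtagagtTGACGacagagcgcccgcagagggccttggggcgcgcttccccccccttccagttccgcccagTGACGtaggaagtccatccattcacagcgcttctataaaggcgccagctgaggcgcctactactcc
Fosb, chr7:19310046-19310295, minus strand: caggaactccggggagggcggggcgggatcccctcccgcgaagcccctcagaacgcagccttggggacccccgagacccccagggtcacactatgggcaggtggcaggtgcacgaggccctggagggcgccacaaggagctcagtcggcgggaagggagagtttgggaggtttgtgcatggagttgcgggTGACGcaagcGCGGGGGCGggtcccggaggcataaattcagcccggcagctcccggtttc
Jun, chr4:95052223-95052472, minus strand: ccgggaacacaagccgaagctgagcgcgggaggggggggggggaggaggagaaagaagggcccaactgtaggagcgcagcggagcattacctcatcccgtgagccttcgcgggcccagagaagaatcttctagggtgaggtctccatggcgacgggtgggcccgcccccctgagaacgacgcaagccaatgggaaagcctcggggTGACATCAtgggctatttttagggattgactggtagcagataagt
Junb, chr8:84978749-84978998, minus strand: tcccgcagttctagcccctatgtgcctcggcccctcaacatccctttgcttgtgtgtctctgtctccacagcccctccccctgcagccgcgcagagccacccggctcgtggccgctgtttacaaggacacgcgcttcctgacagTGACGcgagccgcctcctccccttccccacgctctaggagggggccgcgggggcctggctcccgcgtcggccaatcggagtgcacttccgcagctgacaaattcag
Egr2, chr10:67537619-67537868, plus strand, 1 of 5 starts in the table: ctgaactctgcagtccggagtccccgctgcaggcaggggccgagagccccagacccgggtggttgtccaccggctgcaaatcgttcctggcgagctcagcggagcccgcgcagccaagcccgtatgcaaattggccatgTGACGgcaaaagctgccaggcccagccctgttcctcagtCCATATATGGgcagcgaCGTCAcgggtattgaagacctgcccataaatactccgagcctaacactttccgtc
In the Jun window the CRE-like match TGACATCA began 45 bases before the start. Over all 32851 windows of this length in the table, which hold several starts for some genes, 7.49% had a CRE-like site. The half-site stood in the windows of 4 of the 7 genes (Fos, Fosb, Junb and Egr2), against 17.8% of all windows. A gene counted if any of its windows held a match, and Egr2 had 5 windows, not all with a half-site. Counts of genes and shares of windows are therefore not like for like. In Fos it began 129 and 66 bases before the start. The Egr site stood in 2 of the 7 (Fosb and Fosl2), against 4.7% of all windows, and the CArG box in Egr2 alone of the 7, against 1.47%. No window of the 7 genes held TGANTCA, which 6.75% of all windows held. Sites further upstream were not searched. A gene with no match here, such as Fos for the CArG box, may therefore still have that element beyond the 250 bases.

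In shPARP2 C2C12 cells, all 4 Fos genes, all 3 Jun genes and Egr1 read higher than in scPARP2 cells, while Egr2 and Egr3 did not pass the test. At an adjusted p under 0.05 in limma, adjusted by Benjamini-Hochberg across all 35556 probe sets, 8 of the 10 genes rose and 0 fell. Over all 19938 genes the same rule called 12.4% higher and 11.6% lower, 24% in either direction, and over all probe sets it called 9.41% higher and 9.14% lower. In bulk RNA, more cells with a transcript and more of it per cell cannot be told apart. The 8 genes changed by 1.25-fold (Fosl1) to 2.53-fold (Egr1), and 5 of them by at least 1.5-fold, a size that 5.27% of all genes reached in this direction. The median log2 fold change, shPARP2 minus scPARP2, was 0.61 over the 10 genes and -0.024 over all genes. For each of the 8 genes every shPARP2 array read above every scPARP2 array, as it did for 20.7% of all genes, and 0 of the 10 had every shPARP2 array below, as 21.4% of all genes did.

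**Figure D1:**
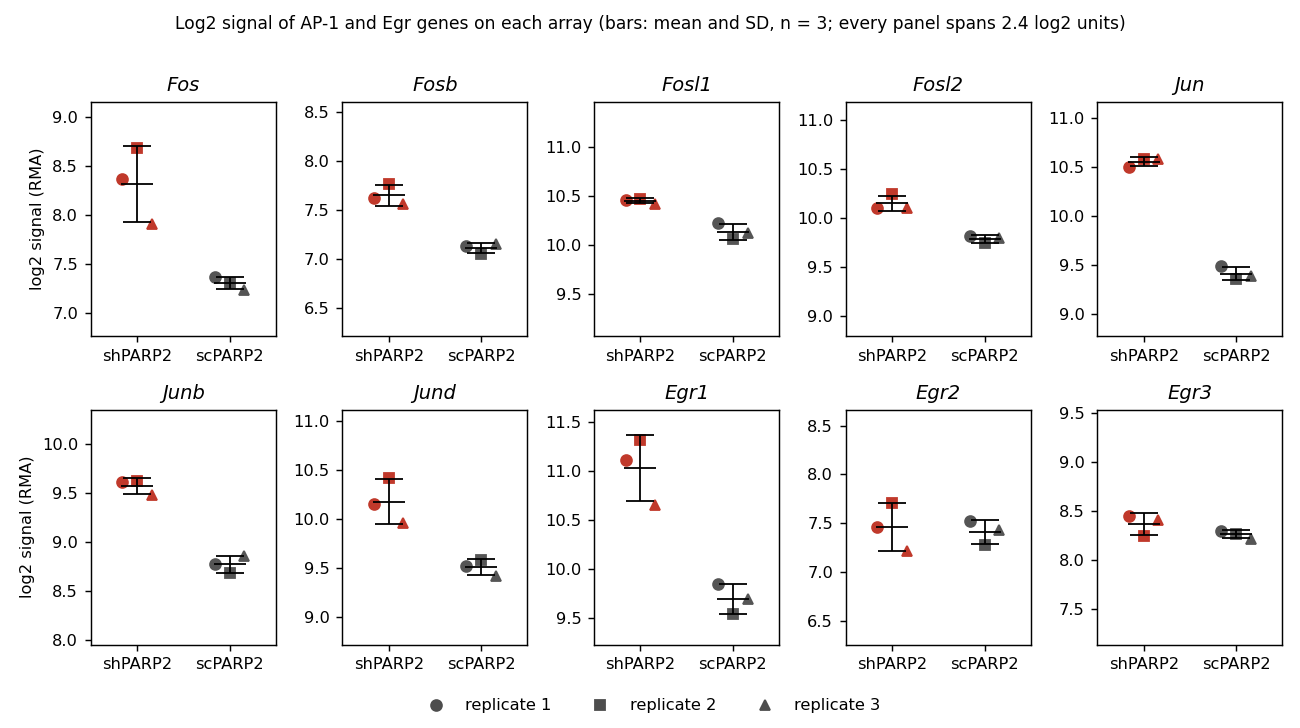
Log2 signal (vertical axis, RMA) of each gene on the 6 arrays, with shPARP2 in red on the left and scPARP2 in grey on the right of each panel. Symbols are arrays and bars are the mean and SD of 3. The lines are apart in the panels of the 4 Fos genes, the 3 Jun genes and Egr1, and they overlap in those of Egr2 and Egr3.

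Parp2, the silenced gene, was lower in the silenced line. It read 7.97 ± 0.15 (SD, n = 3) in shPARP2 and 9.04 ± 0.10 (SD, n = 3) in scPARP2 cells on the log2 scale, which left 47.6% of the signal (log2 fold change -1.07, adjusted p = 0.00103 from limma). Array medians ranged over 7.04 to 7.18 on the log2 scale. The median SD per probe set was 0.142 in shPARP2 and 0.0753 in scPARP2 cells. Mean signals of the 7 myoblast markers lay between percentiles 50.6 (Cav3) and 96.4 (Des) of all probe sets, those of the 6 leukocyte markers between 17.9 (Adgre1) and 59.5 (Cd68), and those of the 8 epithelial and endothelial markers between 28.2 (Epcam) and 62.2 (Krt8). The ranges overlapped. The 10 genes themselves lay between percentiles 54.4 and 86.8. A percentile places the signal of a probe set and is not an amount of mRNA.

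Jun, the c-Jun protein that is the core partner of AP-1 and a direct substrate of JNK, had the smallest adjusted p of the set. Its log2 signal was 10.50, 10.58 and 10.58 in shPARP2 cells, against 9.49, 9.35 and 9.39 in scPARP2 cells. Each line was tight and the lines were far apart. The change was 2.21-fold (95% CI 1.97 to 2.48; log2 fold change 1.14, standard error 0.07, adjusted p = 0.000247 from limma).

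Junb, a Jun family member that often restrains c-Jun and is needed for muscle mass in mice, rose 1.74-fold (95% CI 1.53 to 1.99). It read 9.61, 9.62 and 9.48 in shPARP2 cells, against 8.78, 8.68 and 8.85 in scPARP2 cells. On the log2 scale that is 0.80 with a standard error of 0.08 (adjusted p = 0.00126 from limma). Jund, the Jun member that is present in most resting cells, rose 1.59-fold (95% CI 1.29 to 1.96) with a wider spread. It read 10.16, 10.42 and 9.96 in shPARP2 cells, against 9.52, 9.58 and 9.42 in scPARP2 cells. The lowest shPARP2 array of Jund, replicate 3, was still above the highest scPARP2 array (log2 fold change 0.67, standard error 0.13, adjusted p = 0.0130 from limma). Leaving out scPARP2 replicate 1 or 3 ended the call of Jund, at an adjusted p of 0.0504 and 0.0577.

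Fos, the c-Fos protein and the classic short-lived immediate-early gene, rose 2.02-fold (95% CI 1.48 to 2.77), the largest change of its family. Its log2 signal was 8.37, 8.68 and 7.91 in shPARP2 cells, against 7.37, 7.31 and 7.24 in scPARP2 cells. The shPARP2 arrays were spread over a far wider range than the scPARP2 arrays, with an SD of 0.387 against 0.0659. On the log2 scale the change was 1.02 with a standard error of 0.19 (adjusted p = 0.0126 from limma), and Fos no longer passed without scPARP2 replicate 3 (adjusted p = 0.0519).

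Fosb, a Fos protein that also gives the stable splice form ΔFosB, read 7.62, 7.77 and 7.56 in shPARP2 cells, against 7.13, 7.05 and 7.15 in scPARP2 cells. This is a 1.45-fold rise (95% CI 1.27 to 1.66; log2 fold change 0.54, standard error 0.08, adjusted p = 0.00529 from limma). The probe set does not tell the splice forms apart.

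Fosl1 and Fosl2, which encode the Fos-related antigens Fra-1 and Fra-2 that lack the strong activation domain of c-Fos, changed least among the 8. Fosl1 read 10.46, 10.47 and 10.42 in shPARP2 cells, against 10.22, 10.06 and 10.12 in scPARP2 cells. Fosl2 read 10.10, 10.24 and 10.10 in shPARP2 cells, against 9.82, 9.74 and 9.79 in scPARP2 cells. The lines did not overlap for either gene, but the steps were small. The rise was 1.25-fold for Fosl1 (log2 fold change 0.32, standard error 0.07, adjusted p = 0.0234 from limma) and 1.29-fold for Fosl2 (0.37, standard error 0.07, adjusted p = 0.0145 from limma). Fosl1 no longer passed without shPARP2 replicate 1 or scPARP2 replicate 2 or 3 (adjusted p from 0.0655 to 0.106). Fosl2 did not pass without any one of the scPARP2 replicates (0.0561 to 0.0725).

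Egr1, a zinc-finger factor that responds to serum and ERK, had the largest change of the 10 genes. Its log2 signal was 11.11, 11.32 and 10.66 in shPARP2 cells, against 9.84, 9.53 and 9.69 in scPARP2 cells. Every shPARP2 array was well above every scPARP2 array, although the shPARP2 arrays differed among themselves. The rise was 2.53-fold (95% CI 1.88 to 3.41; log2 fold change 1.34, standard error 0.18, adjusted p = 0.00373 from limma), and 0.933% of all genes had a larger log2 fold change. For Fos and Jun these shares were 1.82% and 1.39%.

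Egr2, best known for its role in Schwann cell myelination, read 7.46, 7.71 and 7.21 in shPARP2 cells, against 7.53, 7.28 and 7.43 in scPARP2 cells. Egr3, which muscle spindles need to form, read 8.45, 8.24 and 8.40 in shPARP2 cells, against 8.30, 8.27 and 8.22 in scPARP2 cells. For both genes the lines overlapped. The fold was 1.03 for Egr2 (95% CI 0.820 to 1.30, adjusted p = 0.879 from limma) and 1.08 for Egr3 (95% CI 0.944 to 1.23, adjusted p = 0.456 from limma). The 95% intervals therefore still allow a rise of up to 1.30-fold in Egr2, or a fall.

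**Figure D2:**
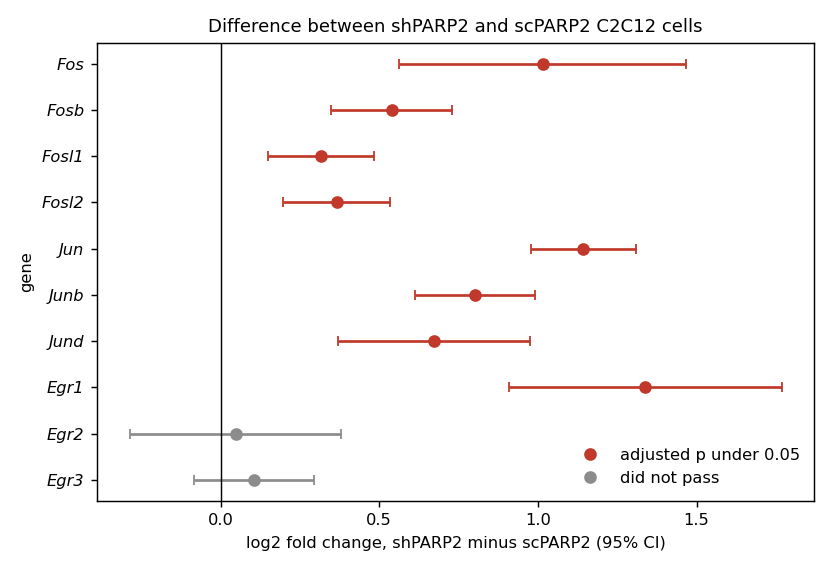
Log2 fold change between shPARP2 and scPARP2 cells (horizontal axis) of the 10 genes, with 3 arrays a line. Points are fitted differences and bars 95% confidence intervals; the 8 red points passed at an adjusted p under 0.05, and the intervals of Egr2 and Egr3 (grey) include 0.

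For each of the 12 pairs of genes within a family, the log2 difference between both genes on each array was compared between the lines with an exact two-sided permutation test over the 6 arrays, whose smallest possible p is 0.10. No pair passed, and none could in this design (exact permutation p from 0.10 to 0.90, adjusted p at least 0.133 over the 12 pairs), so the differences below are a description. The log2 signal of Egr1 minus that of Egr2 was 3.65, 3.61 and 3.44 in shPARP2 cells, against 2.32, 2.25 and 2.26 in scPARP2 cells. A difference between probe sets is used here only for its change between the lines. The change of Egr1 exceeded that of Egr2 by 1.29 and that of Egr3 by 1.23 on the log2 scale. In the same way Fos exceeded Fosl1 by 0.70, Fosl2 by 0.65 and Fosb by 0.48. Jun exceeded Jund by 0.47 and Junb by 0.34. The smallest differences were 0.049 for Fosl2 over Fosl1, 0.058 for Egr3 over Egr2 and 0.13 for Junb over Jund.

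**Figure D3:**
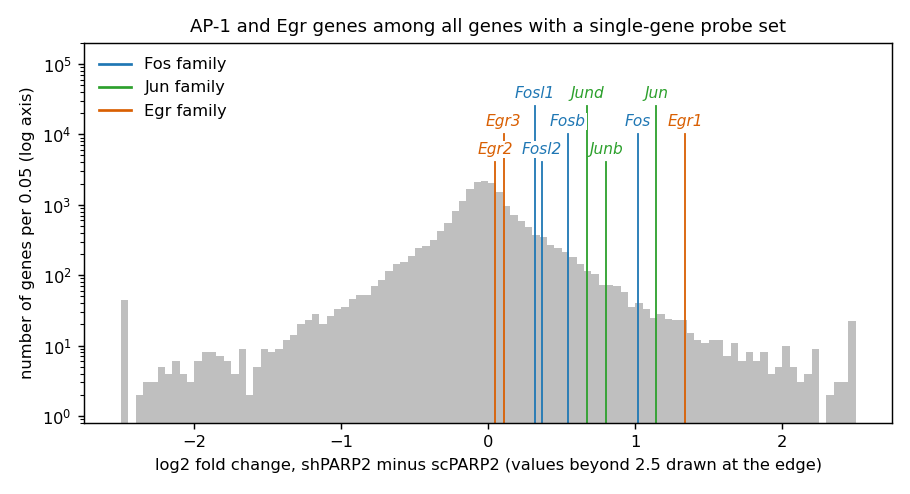
Number of genes (vertical log axis) by log2 fold change between shPARP2 and scPARP2 cells (horizontal axis) for the 19938 genes, with the 10 AP-1 and Egr genes as coloured lines by family. Egr1 at 1.34, Jun at 1.14 and Fos at 1.02 lie in the thin right tail, and Egr2 at 0.047 and Egr3 at 0.10 lie near the centre.

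Most of the 10 genes had the same highest and the same lowest array within a line. Within shPARP2 cells, replicate 2 was the highest array for 8 of the 10 genes, where it was the highest for 34.3% of all genes, and replicate 3 was the lowest for 8 of the 10, where it was the lowest for 27.7% of all genes. Within scPARP2 cells, replicate 1 was the highest for 7 of the 10 (32.2% of all genes) and replicate 2 the lowest for 7 (31.6% of all genes). The SD was larger in shPARP2 than in scPARP2 cells for 7 of the 10 genes and for 78.4% of all genes. Myod1, the myogenic master factor, named here after its values were seen, had the same order in shPARP2 cells, at 9.79, 10.19 and 8.89. In scPARP2 cells it read 9.79, 9.85 and 9.82. The order was not particular to Myod1: Mki67 (9.37, 9.81 and 8.85), Top2a, Cdk1 and Acta1, also named after their values were seen, had it too. Csrnp1 did not, at 9.62, 9.53 and 10.10. The share of all genes with this order was not counted. Without shPARP2 replicate 3 all 8 genes still passed, and without shPARP2 replicate 2 all 8 did too.

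Among 34 other immediate-early genes, all of which were measured, 14 rose in shPARP2 cells, 3 fell and 17 did not pass. Over all genes, 12.4% rose and 11.6% fell. The median log2 fold change of the list was 0.26, against -0.024 over all genes. Csrnp1, a nuclear protein induced through AXIN1, rose most, with 9.62, 9.53 and 10.10 in shPARP2 cells, against 7.84, 7.98 and 7.71 in scPARP2 cells (log2 fold change 1.91, adjusted p = 0.000814 from limma). Ier2, a short immediate-early nuclear protein, read 9.14, 9.29 and 9.23 in shPARP2 cells, against 7.23, 7.32 and 7.52 in scPARP2 cells (1.86, adjusted p = 0.000135). The lines were more than 1 log2 unit apart for both genes. Gadd45g, a growth arrest and stress gene, and Nr4a1, an orphan nuclear receptor that is a classic serum-induced gene, had log2 fold changes of 1.60 and 1.33 (adjusted p = 0.000263 and 0.000183 from limma). The genes that fell, chosen for naming after their values were seen, were Zfp36l1, an mRNA decay factor (log2 fold change -1.05), Dusp1, the phosphatase that switches off MAP kinases (-0.74), and Sik1, a CREB-regulated kinase (-0.56). Dusp1 read 10.66, 10.65 and 10.55 in shPARP2 cells, against 11.42, 11.36 and 11.31 in scPARP2 cells (adjusted p = 0.00100 from limma). Egr4, the remaining Egr gene, also named after its values were seen, had a log2 fold change of -0.078 and did not pass.

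Of 9 bZIP partners and antagonists of AP-1, 1 rose, 1 fell and 7 did not pass, where 12.4% of all genes rose and 11.6% fell. The number that rose was 3 without dim probe sets, with single-gene probe sets only, with a trended and robust variance, with array weights and with averaged probe sets. Calls in general moved too. Probe sets called higher were 3345 in the main fit, 3795 without dim ones, 3828 with the trended and robust variance and 4142 with array weights. With single-gene probe sets only they were 3256, out of 21789 rather than 35556. Atf3, a stress-induced factor that dimerizes with Jun proteins, read 11.65, 11.65 and 11.75 in shPARP2 cells, against 10.40, 10.31 and 10.35 in scPARP2 cells. Its change was 2.52-fold (log2 fold change 1.33, adjusted p = 0.000131 from limma), beside 2.53-fold for Egr1. Ddit3, the stress factor CHOP, had a log2 fold change of -0.34 (adjusted p = 0.0362), and its call ended without each array but shPARP2 replicates 2 and 3 (adjusted p from 0.0858 to 0.133).

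Of 11 activators of immediate-early transcription, 2 rose, 1 fell and 8 did not pass, so that 3 of 11 were called, near the 24% of all genes called in either direction. The median log2 fold change was 0.10. Without dim probe sets and with a trended and robust variance, 4 rose and 2 fell. Calls in general were also more numerous there. Without dim probe sets, 3795 probe sets were higher and 3787 lower, and with the trended and robust variance 3828 and 3804. In the main fit the counts were 3345 and 3249. Mrtfa, the actin-regulated SRF coactivator, read 10.56, 10.61 and 10.44 in shPARP2 cells, against 10.08, 10.03 and 10.03 in scPARP2 cells (log2 fold change 0.49, adjusted p = 0.00491 from limma). Crem, a CREB relative that also gives repressor forms, had a log2 fold change of 0.53 (adjusted p = 0.0212) and Ep300, a histone acetyltransferase, one of -0.36 (adjusted p = 0.0168). The call of Crem ended without any one of the scPARP2 replicates (adjusted p from 0.0634 to 0.0846). That of Ep300 also ended without shPARP2 replicate 1 (0.0502 to 0.0787 over these 4 arrays). Nab1 and Nab2, the corepressors that bind Egr proteins, had log2 fold changes of -0.21 and -0.36 and did not pass (adjusted p = 0.123 and 0.0749 from limma).

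Among 22 kinases upstream of AP-1 and Egr genes, 16 were measured. Of these, 3 rose, 5 fell and 8 did not pass, where 12.4% of all genes rose and 11.6% fell. The median log2 fold change of the kinases was -0.063. The genes that rose were Map3k1 (0.42), which acts above JNK, Map2k3 (0.36), which acts on p38, and Map2k1 (0.32), which encodes MEK1. Those that fell were Mapk14 (-0.53), the p38α kinase, Map2k6 (-0.47), Araf (-0.43), Rps6ka5 (-0.37) and Mapk7 (-0.28). Araf, a RAF kinase, read 9.48, 9.64 and 9.56 in shPARP2 cells, against 10.01, 9.97 and 9.98 in scPARP2 cells (adjusted p = 0.00740 from limma), and its call held without any one array. The calls of the other 7 each ended without at least 1 array, scPARP2 replicate 3 among them for every one. Some of these genes are named after their values were seen, and mRNA levels say nothing of kinase activity.

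Of 16 known AP-1 targets, 14 were measured: 5 rose, 4 fell and 5 did not pass, where 12.4% of all genes rose and 11.6% fell, and the median log2 fold change was -0.089. Il6, a cytokine that myoblasts secrete, read 8.80, 9.45 and 8.65 in shPARP2 cells, against 5.85, 6.01 and 5.82 in scPARP2 cells (log2 fold change 3.07, adjusted p = 0.000353 from limma). Mmp13, a collagenase and textbook AP-1 target, read 6.97, 6.95 and 7.27 in shPARP2 cells, against 11.46, 11.41 and 11.43 in scPARP2 cells (log2 fold change -4.37, adjusted p = 1.9e-05 from limma). The changes of Il6 and Mmp13 were opposite in direction. The deposited table holds no detection calls, so it is not known whether Il6 in scPARP2 cells or Mmp13 in shPARP2 cells was above background, and either change may be understated. Plau, the urokinase gene, and Ccl2, a chemokine, had log2 fold changes of -1.99 and -2.08 (adjusted p = 0.000573 and 0.00439 from limma). The other genes of the list that passed, named after their values were seen, were Hbegf (1.59), Timp1 (1.10), Mmp3 (0.78), Cd44 (0.57) and Gja1 (-1.23).

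Of 11 Egr targets, 9 were measured: 2 rose, 4 fell and 3 did not pass, where 12.4% of all genes rose and 11.6% fell. The median log2 fold change of the list was -0.079. Sphk1, the sphingosine kinase, read 9.72, 9.86 and 9.76 in shPARP2 cells, against 8.59, 8.48 and 8.63 in scPARP2 cells (log2 fold change 1.21, adjusted p = 0.000263 from limma). Tgfb1, the growth factor TGF-β1, read 10.08, 10.18 and 9.96 in shPARP2 cells, against 10.81, 10.81 and 10.82 in scPARP2 cells (-0.74, adjusted p = 0.00156 from limma). F3, which encodes tissue factor, had a log2 fold change of -0.97 and Igf2, an insulin-like growth factor, one of 0.63 (adjusted p = 0.000889 and 0.00277 from limma). Pdgfb (-0.59) and Pmp22 (-0.59), named after their values were seen, also fell, and the call of Pmp22 ended without shPARP2 replicate 1 or any one of the scPARP2 replicates (adjusted p from 0.0669 to 0.0922).

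**Figure D4:**
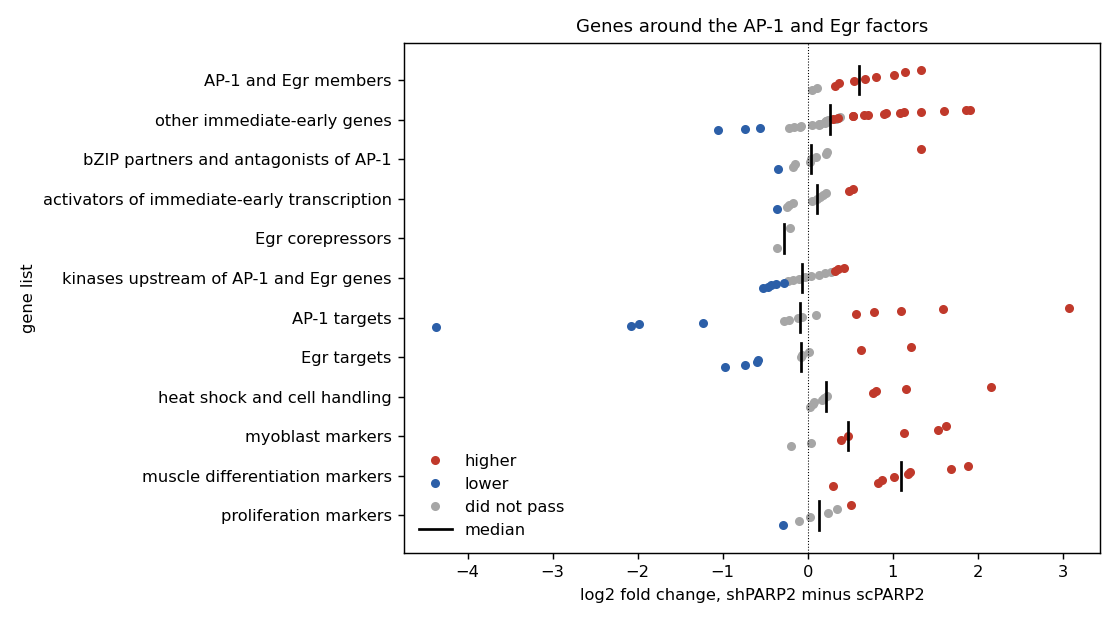
Log2 fold change between shPARP2 and scPARP2 cells (horizontal axis) of each measured gene in the AP-1 and Egr set and in the lists around it (vertical axis). Red and blue points passed as higher and lower, grey points did not pass, and bars are medians, at 0.61 for the AP-1 and Egr genes, 0.26 for the other immediate-early genes and -0.089 for the AP-1 targets.

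Genes that respond to heat shock and handling, and muscle genes, differed between the same arrays. Of 11 genes of heat shock and cell handling, 10 were measured. Where 12.4% of all genes rose and 11.6% fell, 4 of these rose, 0 fell and 6 did not pass. Their mean log2 signal per array was 11.87 to 11.89 in shPARP2 and 11.31 to 11.33 in scPARP2 cells. Dnajb1, a heat shock cochaperone, read 11.86, 11.82 and 11.87 in shPARP2 cells, against 9.86, 9.57 and 9.63 in scPARP2 cells (log2 fold change 2.16, adjusted p = 7.3e-05 from limma). Hsph1, Hspa1a and Bag3, which also respond to heat shock factor, had log2 fold changes of 1.16, 0.80 and 0.76. Fos, Jun and Egr1 are known to respond to handling stress too, and a part of handling in the result was not tested.

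All 8 muscle differentiation markers rose, with a median log2 fold change of 1.10. For this list and those below, 12.4% of all genes rose and 11.6% fell. The mean log2 signal of the 8 markers per array was 10.61 to 10.98 in shPARP2 and 9.61 to 9.74 in scPARP2 cells. Ckm and Actc1 are named because their calls did not hold throughout: that of Ckm ended without any one of the 6 arrays (adjusted p from 0.0518 to 0.182) and that of Actc1 without shPARP2 replicate 1 or any one of the scPARP2 replicates (0.0530 to 0.0717). Mymk, the fusion protein myomaker, and Tnnt2, a troponin of early myotubes, had log2 fold changes of 1.89 and 1.69 (adjusted p = 0.000261 and 0.000147 from limma). Acta1, skeletal actin, and Tnnt1, the slow troponin T, had log2 fold changes of 1.20 and 1.18. Of 7 myoblast markers, 5 rose and 0 fell, Ncam1 (1.63), Cdh2 (1.53), Myf5 (1.13) and Cdh15 (0.48) among them. The other that rose was Des (0.39, adjusted p = 0.0449 from limma). Its call ended without shPARP2 replicate 1 or 2 or any one of the scPARP2 replicates (adjusted p from 0.0743 to 0.148). The myoblast markers that did not pass were Myod1 (-0.20) and Cav3 (0.035), with adjusted p = 0.753 and 0.818 from limma. Of 7 proliferation markers, 6 were measured: 1 rose (Pcna, 0.50), 1 fell (Mcm2, -0.29) and 4 did not pass. The call of Mcm2 ended without shPARP2 replicate 1 or any one of the scPARP2 replicates (adjusted p from 0.0745 to 0.129). No marker of osteoblasts and chondrocytes (5 measured) or of epithelial and endothelial cells (8 measured) passed, no adipocyte marker rose and 2 of 6 fell (Lpl, -1.99, and Cebpa, -1.16), and of 6 leukocyte markers 1 fell (Cd68, -0.72). The part of a difference in differentiation between the lines in the AP-1 and Egr values was not tested.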

How the data were processed

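The deposited table holds log2 values of 35556 probe sets on 6 arrays, which the authors made with RMA, per the submitters' notes on processing; its software version is not given in the sources used here. Genes were named from the platform annotation, with symbols updated through RefSeq (19856 of 19938 genes found). A single gene is named for 21789 probe sets and several for 1621, and 12146 are not named here. Arrays have no read depth, and their number limits the precision.

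Both lines were fitted in limma 3.58.1 (R 4.3.3, lmFit, eBayes, no covariate) and adjusted by Benjamini-Hochberg across all probe sets. The calculation was also run on simulated data in which both lines had the same SD per probe set. That run does not test calls where the lines differ in SD, as here (median 0.142 in shPARP2 and 0.0753 in scPARP2 cells). Calls used an adjusted p under 0.05 and intervals are at 95%. The 10 genes, the lists and the alternatives were chosen with earlier results of these data known, and the pairs and motifs after the values were seen. Besides the 10 genes and Parp2, the rule named in each list up to 4 called genes by size of change, or the 2 of smallest p where none was called (Ibsp, Acan, Tek and Epcam, with log2 fold changes of 0.16, -0.07, -0.31 and -0.11, in the lists with no call); other genes were named after their values were seen. Alternatives were quantile normalization, centring of arrays, a filter at the 40th percentile of mean signal, single-gene probe sets, a trended and robust variance, weights for arrays, the replicate number as a block, stricter thresholds (adjusted p under 0.01, or at least 1.5-fold), averaged probe sets and each array left out. Figures were drawn with matplotlib 3.10.9.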

Additional observations from a re-analysis of the deposited data

How the results depend on the processing

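Of the 10 AP-1 and Egr genes, 8 were called higher and 0 lower; the count was 8 with quantile normalization, with centring, without dim probe sets, with single-gene probe sets only, with a trended and robust variance, with array weights and with probe sets averaged per gene, and 0 were lower under every alternative. It was 4 at an adjusted p under 0.01, 5 with a change of at least 1.5-fold, and 4 to 8 with 1 array left out, 4 being the count without scPARP2 replicate 3. Jun, Junb, Fosb and Egr1 passed at an adjusted p under 0.05 without any one array. With 1 array left out, Egr2 had log2 fold changes from -0.077 to 0.17: -0.077 without shPARP2 replicate 2 and -0.019 without scPARP2 replicate 2 (adjusted p = 0.708 and 0.969 from limma); it was not called in any setting. With the replicate number as a block, 6 of the 10 genes passed, Fosl1 and Fosl2 being lost (adjusted p = 0.0723 and 0.0590), as 2455 higher and 2338 lower probe sets did. Samples with the same number did not deviate together (r of their deviations from the line means -0.05, 0.09 and 0.01), so the number is not taken to pair samples.

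Over all probe sets, 3345 were higher and 3249 lower. The counts were 1736 and 1589 at an adjusted p under 0.01, 1458 and 1327 with a change of at least 1.5-fold, and 1842 to 3449 higher and 1761 to 3782 lower with 1 array left out, the lowest without scPARP2 replicates; without scPARP2 replicate 1, 2 or 3 they were 1961, 1953 and 1842 higher and 1826, 1761 and 1779 lower. With array weights 4142 were higher and 4941 lower. Parp2 stayed lower throughout, with log2 fold changes between -1.15 and -1.01. The median of all genes moved by at most 0.02 on the log2 scale under another scaling. Centring ended the calls of Map2k6, Mapk7, Mapk14, Pmp22, Des, Ckm and Mcm2 (adjusted p from 0.0520 to 0.0967), and quantile normalization those of Map2k3, Map2k6 and Des. Centring left 2 of the 5 kinases called lower. Nab2 passed as lower with quantile normalization and in 6 other settings (adjusted p from 0.0126 to 0.0461), and Nab1 with quantile normalization and array weights (0.0413 and 0.0211). Each member has 1 single-gene probe set, so no second probe set could be compared.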
